A study of Mus musculus with 12 samples.

Results

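The genes described here are 9 RNA genes chosen by name: the nuclear long noncoding RNAs Malat1, Neat1 and Miat, the noncoding RNAs Meg3, Rian and Mirg of the imprinted Dlk1-Dio3 region with its protein-coding gene Dlk1, and the imprinted neighbours H19 and Igf2. All 9 were matched by symbol among the 38293 genes of each count table. The counts come from RNA sequencing of mouse hearts in 4 groups of 3 libraries. WT sham hearts and WT IR hearts came from wild-type C57Bl/6J mice, the former after sham surgery and the latter 14 days after ischaemia-reperfusion (IR), a temporary ligation of a coronary artery followed by reflow. Zeb2 WT IR hearts came from wild-type control mice and Zeb2 cTg IR hearts from mice labelled ZEB2 Tg, both of the same C57Bl/6J strain and also taken 14 days after IR, so that these 2 groups differ in genotype and share the injury. Per the methods, the mice were 8 to 9 weeks old; they are given as male in one place and as male and female in another. Zeb2 cTg mice carried a Zeb2 transgene in the Rosa26 locus that was switched on by Cre under the Myh6 promoter, which is active in cardiomyocytes. The methods do not say whether the Zeb2 WT littermates carried Cre. ZEB2 itself is a zinc finger transcription factor that binds E-box sequences.

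Long noncoding RNAs are transcripts that are not translated into protein. MALAT1 lies in nuclear speckles, where splicing factors gather, and NEAT1 is the scaffold on which paraspeckles are built; MIAT was first linked to myocardial infarction in human genetics. An imprinted gene is read from the copy of 1 parent only: Meg3, Rian, Mirg and H19 from the maternal copy, and Dlk1 and Igf2 from the paternal copy. In the Dlk1-Dio3 region the maternal noncoding RNAs carry many microRNAs and small nucleolar RNAs (snoRNAs) in their introns and exons. IGF2 is a growth factor of the foetal heart, DLK1 is an atypical ligand of Notch receptors, and most of these imprinted genes are known to be silenced in large part after birth.

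The genes lie in 4 places of the genome (GRCm38, GENCODE M21). Malat1 (ENSMUSG00000092341) spans chr19:5795690-5802672 on the minus strand as 6983 bases without a separate intron in the merged annotation, and Neat1 (ENSMUSG00000092274) lies beside it on the same strand at chr19:5824708-5845478. Dlk1 (chr12:109452823-109463336), Meg3 (chr12:109541001-109571726), Rian (chr12:109603940-109661716) and Mirg (chr12:109729764-109749460) follow each other on the plus strand. H19 (chr7:142575529-142578143) and Igf2 (chr7:142650766-142666816) lie on the minus strand, and Miat (chr5:112213228-112229395) lies alone on the minus strand. The annotation places 14 microRNA genes on the strand of Mirg within its bounds, 4 within Rian, 2 within Meg3 and 1 each within H19 and Igf2, and 13 snoRNA genes within Rian. Malat1, Miat, Meg3, Mirg, H19 and Igf2 each have 1 or 2 annotated genes on the opposite strand, which the stranded libraries can separate if the counting used the strand; the setting is not given in the sources used here.

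RefSeq (GRCm38.p6) lists 39 mature microRNAs from 21 hairpins within 5 of the members, with 38 different seeds (bases 2 to 8). Mirg holds 26 of them, Rian 6, Meg3 3, H19 2 and Igf2 2. The following 8 are shown because they stand for each host gene and include the only pair that shares a seed, miR-453 and miR-496a-5p; capitals mark the seed.
mmu-miR-770-5p: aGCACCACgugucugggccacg
mmu-miR-370-3p: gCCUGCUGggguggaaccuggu
mmu-miR-382-5p: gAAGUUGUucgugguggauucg
mmu-miR-410-3p: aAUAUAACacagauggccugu
mmu-miR-453: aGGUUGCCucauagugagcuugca
mmu-miR-496a-5p: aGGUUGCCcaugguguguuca
mmu-miR-675-5p: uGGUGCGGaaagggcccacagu
mmu-miR-483-3p: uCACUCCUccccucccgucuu
These small RNAs were not measured: libraries of this kind lose RNAs of this size, and the reads counted on the hosts report the long transcript. Over the Dlk1-Dio3 region, 36 of 56 microRNA genes held a read in at least 1 library, with 14 counts in the 3 WT sham libraries together, 44 in WT IR, 26 in Zeb2 WT IR and 27 in Zeb2 cTg IR. For the 22 snoRNA genes these totals were 19, 43, 19 and 21. No single microRNA or snoRNA gene there exceeded 8 counts in a group of 3 libraries, so none was tested.

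The stretches from 250 bases before to 50 after the start of transcription were taken from RefSeq (GRCm38.p6), which has them for 7 of the 9 members, with 2 starts for Meg3 and 4 for Igf2. Searches for 3 short motifs were made on both strands of each: the E-box CACCTG that ZEB proteins bind, the core of the hypoxia response element written as ACGTG or GCGTG, and the full cAMP response element TGACGTCA. The 3 promoters below are shown for the gene that passed the test after IR (Igf2), for the start of the Dlk1-Dio3 noncoding RNAs (Meg3) and for the most abundant member (Malat1); capitals mark the motif found.
Meg3, the first of 2 starts, chr12:109540746-109541045, plus strand: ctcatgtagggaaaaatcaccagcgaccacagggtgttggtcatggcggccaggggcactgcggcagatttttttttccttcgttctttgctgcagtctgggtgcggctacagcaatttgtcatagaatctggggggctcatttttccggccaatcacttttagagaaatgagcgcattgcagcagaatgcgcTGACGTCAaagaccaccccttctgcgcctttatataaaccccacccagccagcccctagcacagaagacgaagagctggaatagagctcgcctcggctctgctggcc
Igf2, the third of 4 starts, chr7:142658755-142659054, minus strand: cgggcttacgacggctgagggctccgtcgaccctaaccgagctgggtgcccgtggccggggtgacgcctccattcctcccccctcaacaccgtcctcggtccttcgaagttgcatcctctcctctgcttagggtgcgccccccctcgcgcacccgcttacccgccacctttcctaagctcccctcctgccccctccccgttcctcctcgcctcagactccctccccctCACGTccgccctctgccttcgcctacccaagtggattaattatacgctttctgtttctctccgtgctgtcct
Malat1, chr19:5802623-5802922, minus strand: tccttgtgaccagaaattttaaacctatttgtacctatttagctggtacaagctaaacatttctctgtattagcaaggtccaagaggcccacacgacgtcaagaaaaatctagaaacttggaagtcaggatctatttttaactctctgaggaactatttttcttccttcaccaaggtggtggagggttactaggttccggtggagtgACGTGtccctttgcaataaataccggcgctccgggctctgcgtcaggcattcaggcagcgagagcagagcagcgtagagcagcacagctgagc
The cAMP response element of the Meg3 promoter begins 57 bases before the start, and 1.79% of 32851 RefSeq promoters hold one. A hypoxia response core stands in the third Igf2 promoter (CACGT on the strand shown, 22 bases before the start), in Malat1 (43 bases before), in Miat (182 bases before) and at 2 places in Dlk1, while 43.8% of all promoters hold one. CACCTG is in none of the member promoters and in 20.2% of all promoters. The first Meg3 promoter has 13 CpG sites, Mirg 10 and Rian 0, against a median of 7 over all promoters. The RefSeq stretch for Mirg (chr12:109734731-109735030) lies inside the gene as GENCODE places it, with its start at 109729764. That stretch holds the sequences of miR-668-5p and miR-485-3p. These are letter matches in short windows, and no binding was measured.

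Reads counted on genes came to between 20215781 and 36816818 per library, of which 60.6% to 73.5% fell on the mitochondrial genome and 5706340 to 11618213 outside it. Levels are given as CPM, counts per 1e6 of all counts after scaling with TMM factors, and 1 CPM stands for 17.2 to 37.8 counts. Cardiomyocyte markers summed to between 53712 and 80222 CPM in every library, while the 5 adipocyte markers together stayed at or below 0.605 CPM. RNAs that carry no poly(A) tail (9 of the 12 listed are in the tables) differed in level between the 2 tables, which were scaled separately. They summed to 3504 to 5497 CPM in the WT sham and WT IR libraries and to 1599 to 3108 CPM in the Zeb2 libraries. Of the 8 that were tested, 3 rose after IR: Scarna6 (log2 fold change 1.05, adjusted p = 0.00655), Vaultrc5 (1.47, adjusted p = 0.00897) and Snord118 (1.03, adjusted p = 0.0366). Over all genes, 11.0% rose. None of the 8 passed between the Zeb2 groups. Zeb2 had 55.5, 56.9 and 58.7 CPM in the hearts labelled Zeb2 cTg IR and 54.7, 57.8 and 67.0 CPM in Zeb2 WT IR. The fitted log2 difference was -0.07 (SE 0.12, adjusted p = 0.750). The transgene thus did not show as a higher Zeb2 count, and the labels could not be checked with it. By qPCR and staining, the authors report more Zeb2 mRNA and ZEB2 protein in Zeb2 cTg hearts than in Zeb2 WT hearts. After IR, Zeb2 rose from 49.0, 49.9 and 55.9 CPM in WT sham to 59.1, 80.8 and 74.6 CPM in WT IR (log2 fold change 0.47, SE 0.12, adjusted p = 0.0219).

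The members spanned more than 4 orders of magnitude in level. CPM were divided by the length of the merged exons of all annotated transcripts. This was 18234 bases for Rian, 18089 for Meg3, 5723 for Igf2 and 2460 for H19. Malat1 had a mean of 560 CPM per kb in WT sham, the 23rd highest of 13609 tested genes with a known length. Neat1 had 23.1 CPM per kb, above 96.6% of these genes. H19 (2.29 CPM per kb) and Igf2 (1.34 CPM per kb) stood near the median of all tested genes, 1.52 CPM per kb. Rian (0.246 CPM per kb) and Meg3 (0.201 CPM per kb) were above 11.0% and 9.04% of genes, and Mirg (0.0296 CPM per kb) above 0.228%. These ranks depend on the length used. Without the division, mean CPM in WT sham was 4.49 for Rian and 3.64 for Meg3, beside 5.64 for H19 and 7.66 for Igf2. By group means of CPM per kb, the order Malat1, Neat1, H19, Igf2, Rian, Meg3, Mirg was the same in all 4 groups. Some neighbours in it overlapped in single libraries: Rian (0.215 to 0.303 CPM per kb) and Meg3 (0.132 to 0.236 CPM per kb) in WT sham and also in WT IR, and H19 (0.477 to 1.37 CPM per kb) and Igf2 (0.495 to 0.711 CPM per kb) in Zeb2 WT IR and also in Zeb2 cTg IR. In WT sham H19 (1.85 to 3.0 CPM per kb) lay above Igf2 (1.19 to 1.57 CPM per kb) in every library. By counts the order was the reverse, with 0.667, 0.694 and 0.825 counts of H19 per count of Igf2 in WT sham. Malat1 alone took 0.890% to 1.29% of the counts outside the mitochondrial genome.

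Miat and Dlk1 were next to absent. Over the 12 libraries Miat received 8 counts, never more than 2 in a library, and Dlk1 1 count, in WT sham replicate 2. Neither passed the filter on low counts. A count of 0 allows up to 3 counts, or 0.0794 to 0.175 CPM depending on the library, and both genes were within this limit in every library, so no fold change is given. For Miat, exact two-sided permutation tests of the mean CPM gave p = 0.700 after IR and p = 1.00 between the Zeb2 groups, where an exact p of 3 libraries against 3 cannot fall below 0.1. At these counts they bear little on whether Miat changed, and for Dlk1, with its single count, no test can.

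The comparison of WT IR with WT sham asks which genes had changed 2 weeks after the injury. One of the 7 members tested passed: Igf2 fell. Over all 13756 genes tested with edgeR's quasi-likelihood test, 20.8% passed at an adjusted p under 0.05 (11.0% higher and 9.74% lower), and for 39.8% no injured library overlapped the sham range. With scaling on 22 cardiomyocyte markers in place of TMM, the median log2 fold change of all genes moved from 0.01 to 0.29, and 2905 genes were called higher and 227 lower, against 1519 and 1340.

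Igf2 had 6.81, 7.21 and 8.96 CPM in the WT sham libraries and 5.94, 4.07 and 5.37 CPM in the WT IR libraries. Every injured heart lay below every sham heart. The log2 fold change was -0.57 (SE 0.16, 95% interval -0.93 to -0.21, adjusted p = 0.0345). The call was lost on leaving out WT sham replicate 1 (adjusted p = 0.0590), replicate 2 (0.0969) or replicate 3 (0.103), or WT IR replicate 2 (0.118), while the log2 fold change then ranged from -0.65 to -0.42. Scaling on cardiomyocyte markers, of which 6 of 22 fell after IR, gave -0.30 with adjusted p = 0.246.

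H19, the maternal noncoding RNA that shares an enhancer and imprinting control region with Igf2, had 4.54, 5.0 and 7.39 CPM in WT sham and 5.22, 2.78 and 5.48 CPM in WT IR. The groups overlapped, and the log2 fold change was -0.32 (SE 0.26, 95% interval -0.91 to 0.27, adjusted p = 0.415). It ranged from -0.48 to -0.05 with 1 library left out, the latter without WT IR replicate 2, and was -0.04 with scaling on cardiomyocyte markers. Counts of H19 per count of Igf2 were 0.667, 0.694 and 0.825 in WT sham and 0.879, 0.682 and 1.02 in WT IR (exact two-sided permutation p = 0.300). This ratio within a library does not depend on any scaling.

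**Figure D1:**
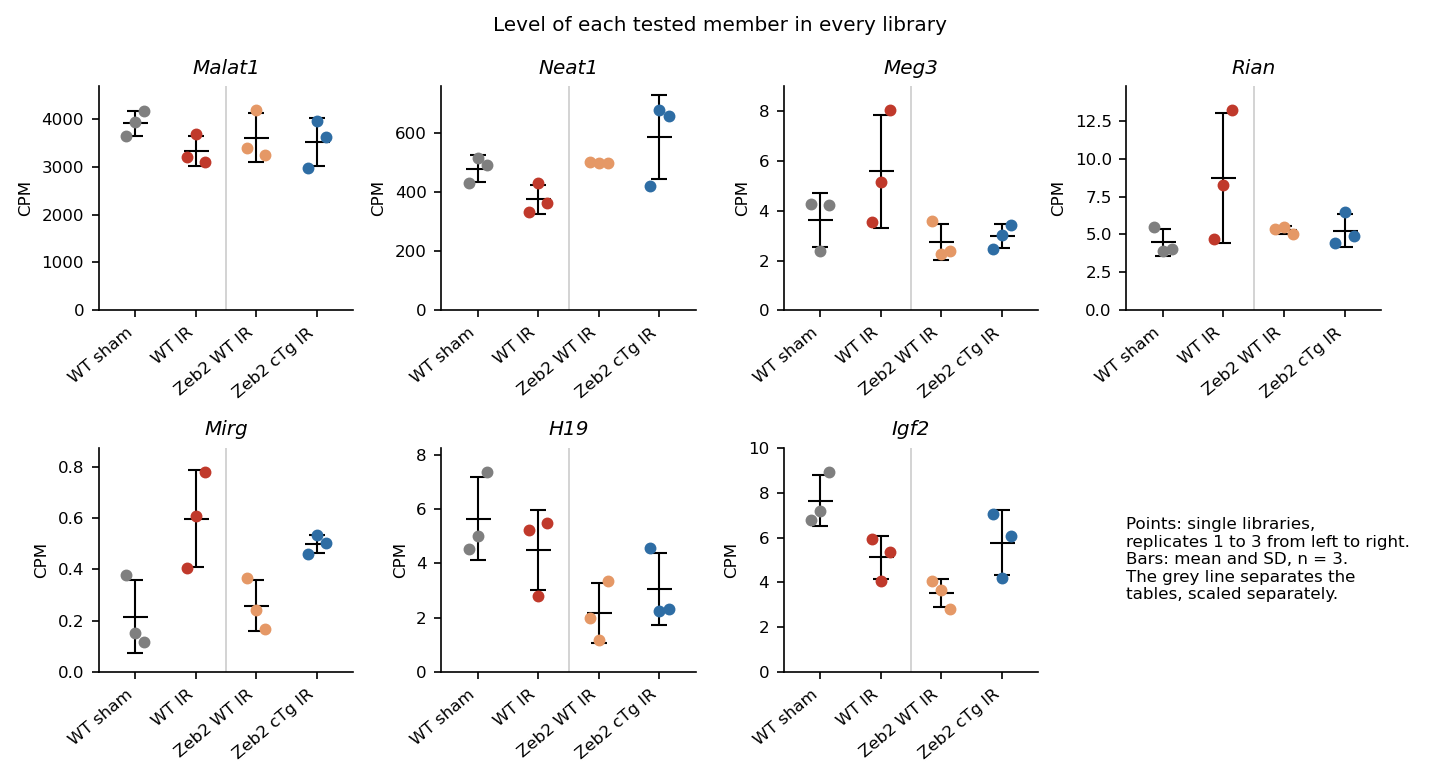
CPM of each tested member (y axis, starting at 0) in the 12 libraries (x axis, by group); points are libraries, and the bars show the mean and SD of 3. Igf2 lies lower in all WT IR libraries than in WT sham, Mirg lies higher, and the spread of Meg3 and Rian in WT IR is wide, with Rian from 4.69 to 13.2 CPM.

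The 3 noncoding RNAs of the Dlk1-Dio3 region had higher means after IR, and none passed the test with TMM scaling. Mirg, the distal RNA that hosts most of the mature microRNAs within the members, was rare: 10, 5 and 2 counts in WT sham and 13, 23 and 21 counts in WT IR, or 0.378, 0.153 and 0.116 against 0.406, 0.608 and 0.783 CPM. Its groups did not overlap, which held for 39.8% of all genes, and the closest pair was 0.378 and 0.406 CPM. The log2 fold change was 1.40 (SE 0.45, 95% interval 0.39 to 2.41, adjusted p = 0.0546).

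Rian, the host of the snoRNA cluster, had 5.52, 3.92 and 4.02 CPM in WT sham and 4.69, 8.23 and 13.2 CPM in WT IR. WT IR replicate 1 lay within the sham range, and the other two lay above it. The log2 fold change was 0.94 (SE 0.32, 95% interval 0.22 to 1.66, adjusted p = 0.0663). Meg3, a growth-restraining RNA at the proximal end, had 4.27, 2.39 and 4.25 CPM against 3.53, 5.16 and 8.05 CPM, with replicate 1 again the lowest of the injured hearts (log2 fold change 0.63, SE 0.31, 95% interval -0.05 to 1.32, adjusted p = 0.168). On leaving out WT IR replicate 1, all 3 passed: Meg3 at 0.88 (adjusted p = 0.0123), Rian at 1.23 (adjusted p = 0.000524) and Mirg at 1.60 (adjusted p = 0.0133). Without that library the number of all genes called rose from 2859 to 4980. Mirg also passed on leaving out WT sham replicate 1 (2.05, adjusted p = 0.0464). Other omissions lowered the values: without WT IR replicate 3, Meg3 was 0.30 (adjusted p = 0.465) and Rian 0.53 (adjusted p = 0.154), and without WT sham replicate 2, Meg3 was 0.36 (adjusted p = 0.493). Mirg was 1.11 (adjusted p = 0.233) without WT sham replicate 2 and 1.18 (adjusted p = 0.147) without WT sham replicate 3. Without WT IR replicate 3 it was 1.19 (adjusted p = 0.137). With scaling on cardiomyocyte markers Rian (1.28, adjusted p = 0.0336) and Mirg (1.70, adjusted p = 0.0342) passed, and Meg3 did not (0.95, adjusted p = 0.0768). With GC content corrected for, none of the 3 passed. Rian was then 0.67 (adjusted p = 0.135), Meg3 0.54 (adjusted p = 0.211) and Mirg 1.35 (adjusted p = 0.0581).

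The 3 WT IR hearts stood in the same order by these RNAs and by fibroblast markers. Meg3, Rian and Mirg summed to 8.62, 14.0 and 22 CPM in WT IR replicates 1, 2 and 3, in which the 12 fibroblast markers summed to 2282, 3387 and 5179 CPM and the 10 macrophage markers to 233, 363 and 441 CPM. In WT sham the sums were 10.2, 6.47 and 8.38 CPM beside 1312, 885 and 943 CPM of fibroblast markers and 174, 159 and 177 CPM of macrophage markers. Thus WT IR replicate 1 had more fibroblast marker RNA than any sham heart and no more RNA of the 3 genes than WT sham replicate 1. Of the fibroblast markers 10 of 12 rose after IR (median log2 fold change 1.57), Postn and Col3a1 among them (3.49 and 2.66). Of the macrophage markers 8 of 10 rose, and 6 of 22 cardiomyocyte markers fell, beside 11.0% and 9.74% of all genes. In WT IR replicates 1, 2 and 3, lymphocyte markers (10.5, 17.9 and 25.2 CPM) and other long noncoding RNAs (105, 114 and 121 CPM) also stood in this order. Cardiomyocyte markers stood in the reverse order (69115, 58789 and 53712 CPM), and endothelial markers in neither (615, 622 and 519 CPM). The order of 3 hearts does not single out a cell type. In whole tissue, a change in the number of cells of a type and a change in RNA per cell cannot be told apart, and the part of the cell types in the levels of these genes was not tested.

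**Figure D2:**
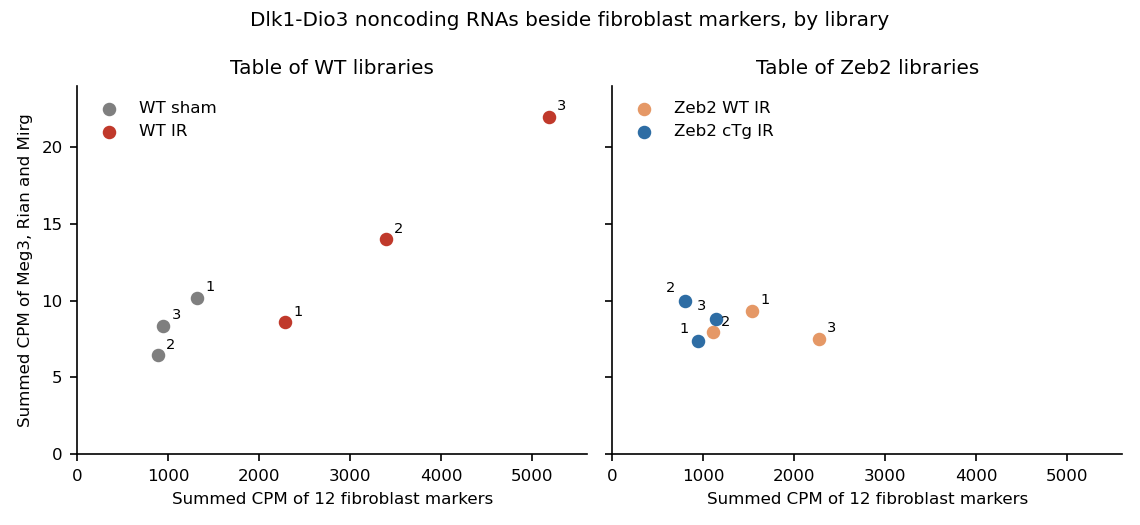
Summed CPM of Meg3, Rian and Mirg (y axis) against the summed CPM of 12 fibroblast markers (x axis) for each library, numbered by replicate, with the tables in separate panels. WT IR replicates 2 and 3 stand at 14.0 and 22 CPM, and the other 10 libraries lie between 6.47 and 10.2 CPM over fibroblast sums from 796 to 2282 CPM.

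The nuclear RNAs were lower in mean after IR and did not pass. Neat1 had 430, 517 and 493 CPM in WT sham and 334, 431 and 365 CPM in WT IR, and a single pair of libraries overlapped (430 and 431 CPM). The log2 fold change was -0.35 (SE 0.12, 95% interval -0.62 to -0.08, adjusted p = 0.0685). It passed at -0.46 (adjusted p = 0.0285) once GC content was corrected for, and at -0.36 (adjusted p = 0.0248) in DESeq2, while it was -0.05 (adjusted p = 0.794) with scaling on cardiomyocyte markers and -0.35 (adjusted p = 0.182) in a fit of all 12 libraries. Malat1 had 3637, 3930 and 4158 CPM against 3206, 3684 and 3097 CPM, also with overlap, and a log2 fold change of -0.23 (SE 0.14, 95% interval -0.55 to 0.08, adjusted p = 0.264); with scaling on cardiomyocyte markers it was 0.05. Neat1 counts per 100 Malat1 counts were 11.8, 13.2 and 11.9 in WT sham and 10.4, 11.7 and 11.8 in WT IR (exact two-sided permutation p = 0.1, the smallest this design allows).

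Genes of proteins that work with these RNAs were looked at next. Of 14 paraspeckle protein genes, 2 fell after IR, Dazap1 (log2 fold change -0.86, adjusted p = 0.00407), an RNA-binding protein, and Smarca4 (-0.32, adjusted p = 0.0222), the ATPase of SWI/SNF chromatin remodelling; the median over the 14 was -0.00 against 0.006 over all genes. None of 9 nuclear speckle protein genes passed (median -0.04). Among 22 other long noncoding RNAs tested, of 40 listed, 3 rose and none fell, with a median of 0.11. Dnm3os, an antisense RNA of Dnm3 that hosts microRNAs, went from 3.44 ± 0.807 to 10.4 ± 3.45 CPM (SD, n = 3; log2 fold change 1.61, adjusted p = 0.00599). Snhg18, a snoRNA host, rose by 1.19 (adjusted p = 0.0156) and Pvt1, a neighbour of Myc, by 1.38 (adjusted p = 0.0229), both on the log2 scale. The shares called, 2 of 14 lower and 3 of 22 higher, stand near the 9.74% and 11.0% of all genes.

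Other imprinted genes went both ways. Of 16 tested, of 30 listed, 3 rose and 2 fell (median 0.05). Sgce, a sarcoglycan, rose by 0.88 (adjusted p = 0.00632), Peg3, a zinc finger protein, by 0.98 (adjusted p = 0.0175) and Ndn, a growth suppressor, by 1.06 (adjusted p = 0.0231). Zim1, the neighbour of Peg3, fell by 0.83 (adjusted p = 0.0336), and Cdkn1c, an inhibitor of the cell cycle, fell by 0.62 (adjusted p = 0.0374), all on the log2 scale. The shares called, 3 and 2 of 16, stand beside 11.0% and 9.74% of all genes.

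Among the genes of the insulin-like growth factor axis around Igf2, 6 of 16 rose and 3 fell (median 0.15), beside 11.0% and 9.74% of all genes. Igf1, the growth factor of postnatal life, went from 13.5 ± 1.20 CPM in WT sham to 33.8 ± 14.4 CPM in WT IR (SD, n = 3; log2 fold change 1.32, adjusted p = 0.0127), so that the 2 ligands moved in opposite directions in the same libraries. Of the 5 binding protein genes tested 4 rose, among them Igfbp3 at 0.74 (adjusted p = 0.00383), Igfbp7 at 1.27 (adjusted p = 0.00595) and Igfbp4 at 1.13 (adjusted p = 0.0136), while Igfbp5 had 0.24 (adjusted p = 0.168). Igfals, the acid-labile subunit of the circulating carrier complex, fell (-1.16, adjusted p = 0.0282). The receptor substrates Irs1 (-0.42, adjusted p = 0.0190) and Irs2 (-1.09, adjusted p = 0.0197) fell. The receptors did not pass: Igf1r had 0.06 (adjusted p = 0.694) and Igf2r, which is imprinted itself and clears IGF2, 0.06 (adjusted p = 0.626). Notch genes, the pathway of the near-absent Dlk1, included 5 that fell and 1 that rose of 12 tested (median -0.36), beside 9.74% and 11.0% of all genes. Notch3 (-0.47, adjusted p = 0.0119), the target Hey1 (-0.79, adjusted p = 0.0141), the ligands Jag2 (-0.85, adjusted p = 0.0162) and Dll4 (-0.46, adjusted p = 0.0238) and Notch1 (-0.29, adjusted p = 0.0234) fell, and Notch2 rose (0.48, adjusted p = 0.0261).

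**Figure D3:**
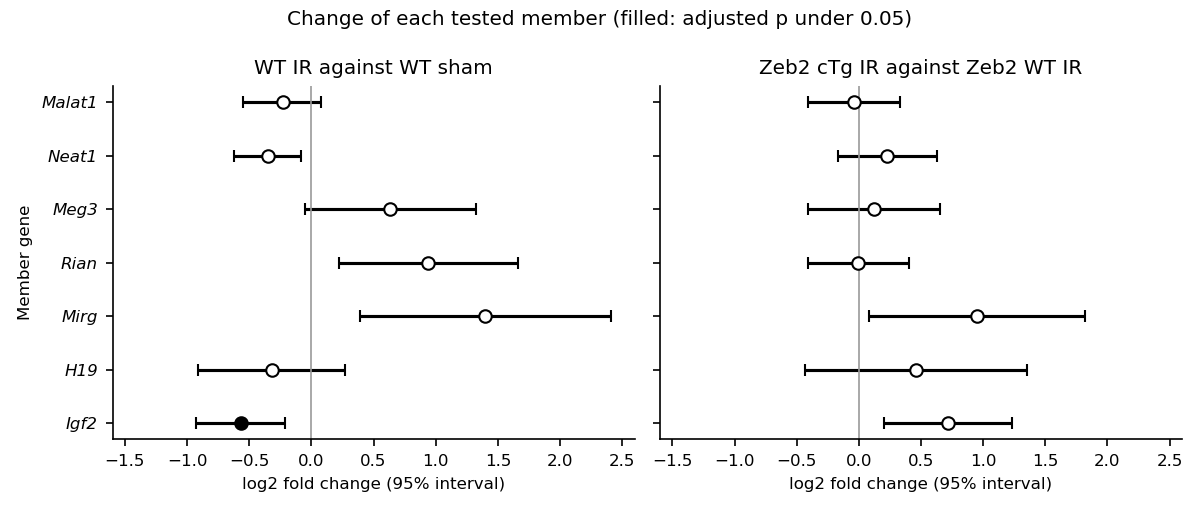
log2 fold change (x axis) of the 7 tested members (y axis) with its 95% interval in both comparisons; filled points passed at an adjusted p under 0.05. Igf2 after IR, at -0.57, is the filled point, and in the Zeb2 comparison Igf2 stands at 0.72 and Mirg at 0.95, both open.

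The comparison of the hearts labelled Zeb2 cTg IR with Zeb2 WT IR asks what the transgene changed in injured hearts. None of the 7 members tested passed, in a comparison in which 3.64% of 13018 genes did (2.14% higher and 1.51% lower) and 26.2% had CPM that kept the groups apart without overlap. At an unadjusted p under 0.05 there were 2 members, Igf2 and Mirg, among 3134 genes in all. With DESeq2 no member passed either. Scaling on cardiomyocyte markers moved the median log2 fold change of all genes to -0.15, with 174 genes called higher and 550 lower, against 278 and 196.

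Igf2 had 4.07, 3.64 and 2.83 CPM in Zeb2 WT IR and 7.04, 4.20 and 6.09 CPM in the hearts labelled Zeb2 cTg IR. The groups did not overlap, although 4.07 and 4.20 CPM were close. The log2 fold change was 0.72 (SE 0.23, 95% interval 0.20 to 1.23, adjusted p = 0.105). On leaving out Zeb2 cTg IR replicate 2 it was 0.89 and passed (adjusted p = 0.0161), in a fit that called 2419 genes in all. With GC content corrected for it was 0.40 (adjusted p = 0.200). The sign was positive in this comparison and negative in WT IR against WT sham, and the difference between the 2 was not tested. H19, in the same imprinted domain, had 1.98, 1.17 and 3.36 CPM against 4.57, 2.25 and 2.33 CPM, with overlap (log2 fold change 0.46, SE 0.40, 95% interval -0.43 to 1.35, adjusted p = 0.491). Its value was 0.15 with the GC correction, and with 1 library left out it ran from 0.06 without Zeb2 cTg IR replicate 1 to 0.93 without Zeb2 WT IR replicate 3.

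Mirg was again the Dlk1-Dio3 RNA whose groups did not overlap, which held for 26.2% of all genes in this comparison. It had 10, 6 and 5 counts in Zeb2 WT IR and 11, 14 and 18 counts in the hearts labelled Zeb2 cTg IR. In CPM these were 0.367, 0.243 and 0.167 against 0.461, 0.534 and 0.505. The log2 fold change was 0.95 (SE 0.39, 95% interval 0.08 to 1.82, adjusted p = 0.176). Rian stood at 5.39, 5.46 and 5.0 CPM against 4.44, 6.45 and 4.89 CPM (log2 fold change -0.01, SE 0.18, 95% interval -0.41 to 0.40, adjusted p = 0.988). Meg3 stood at 3.59, 2.27 and 2.37 CPM against 2.47, 3.02 and 3.43 CPM (0.12, SE 0.24, 95% interval -0.41 to 0.65, adjusted p = 0.781). For both genes the interval leaves room for changes of about 0.4 or more either way. Fibroblast markers moved the other way from the WT comparison: 4 of 12 fell (median -0.98), with sums of 1537, 1103 and 2268 CPM in Zeb2 WT IR and 947, 796 and 1134 CPM in the hearts labelled Zeb2 cTg IR. Beside them the sum of Meg3, Rian and Mirg was 9.35, 7.97 and 7.53 CPM and 7.38, 10 and 8.82 CPM.

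Neat1 had a narrow spread in Zeb2 WT IR, at 502, 501 and 499 CPM, and a wider one in the hearts labelled Zeb2 cTg IR, at 423, 679 and 660 CPM, where replicate 1 lay below and the other two above all controls. The log2 fold change was 0.23 (SE 0.18, 95% interval -0.17 to 0.63, adjusted p = 0.445). Malat1 had 3389, 4183 and 3251 CPM against 2968, 3948 and 3617 CPM (-0.04, SE 0.17, 95% interval -0.41 to 0.33, adjusted p = 0.904). Per 100 counts of Malat1 there were 14.8, 12 and 15.4 of Neat1 in Zeb2 WT IR and 14.3, 17.2 and 18.2 in the hearts labelled Zeb2 cTg IR (exact two-sided permutation p = 0.300).

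In the partner lists, none of 15 other imprinted genes tested passed (median -0.19), nor any of 21 other long noncoding RNAs (0.01), 14 paraspeckle protein genes (-0.13) or 9 nuclear speckle protein genes (-0.15). In the insulin-like growth factor list 2 of 16 fell, Irs1 (log2 fold change -0.84, adjusted p = 0.0138) and Igf1, from 21.1 ± 4.67 to 10.5 ± 2.38 CPM (SD, n = 3; -1.01, adjusted p = 0.0317). Igf1 and Igf2 thus stood on opposite sides of 0 in both comparisons, Igf2 without passing in this one. Of 12 Notch genes 1 fell, the transcription factor Hey2 (-1.19, adjusted p = 0.0380). Over all genes, 1.51% fell in this comparison.

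Across the 12 libraries, with log2 CPM centred within each table, members of the same region had positive correlations: Pearson's r was 0.80 between Meg3 and Rian, 0.75 between Rian and Mirg, 0.70 between Meg3 and Mirg, 0.75 between Malat1 and Neat1, and 0.55 between H19 and Igf2. Between regions it lay between -0.52 (Rian and Igf2) and 0.20 (Neat1 and Igf2). The 0.55 of H19 and Igf2 was thus close in size to the -0.52 of Rian and Igf2. These values describe 12 libraries that share the group differences and depth, and GC content was not corrected for. The genes named next, picked as the most like each member, reached 0.834 to 0.954. Among 12791 genes tested in both tables, the 3 most like Igf2 were Slc29a2, a nucleoside transporter (r = 0.954), Nt5dc2 (0.945) and Zfp768 (0.941). Those most like Rian were Nars, a transfer RNA synthetase (0.934), Abca9 (0.934) and Slfn2 (0.932), those most like Meg3 were Zbtb7c (0.940), Rassf2 (0.907) and Rap2b (0.897), and those most like Mirg were Dennd2a (0.941), Mt2, a metallothionein (0.937), and C5ar1, the complement receptor (0.931). Malat1 was closest to Tob1 (0.936), Rprd2 (0.928) and Cox17 (0.909), Neat1 to Smad7 (0.869), Nes (0.854) and Cd3eap (0.834), and H19 to Naxe (0.863), Mrgbp (0.862) and Klhl25 (0.861).

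**Figure D4:**
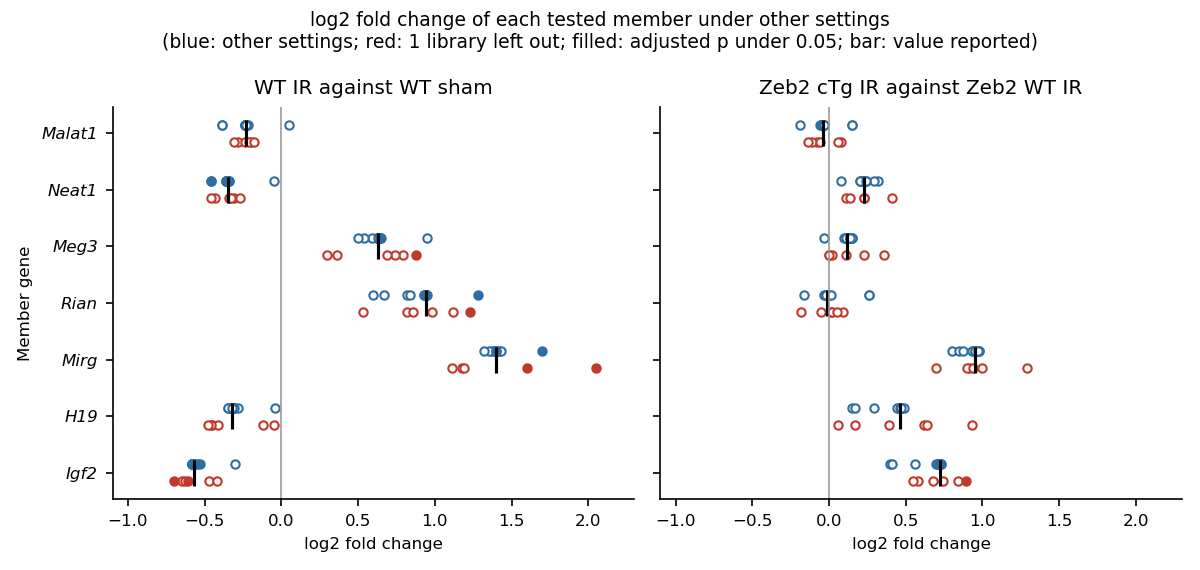
log2 fold change (x axis) of each tested member (y axis) as reported (bar), under other settings (blue) and with 1 library left out (red); filled points passed. After IR the values of Mirg stay between 1.11 and 2.05 and those of Igf2 between -0.70 and -0.30, and in the Zeb2 comparison those of Rian lie on both sides of 0.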

How the data were processed

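RNA was sequenced from 12 mouse hearts, 3 per group, and each library was grouped by its label. The authors aligned stranded single-end reads with STAR 2.4.2a to mm10, counted them with HTSeq 0.6.1 (per the processing notes) on GENCODE M4 (per the methods) and deposited raw counts per gene, without normalization, in 2 tables of 6 libraries. The sources differ on the tissue (left ventricle in the labels, remote zone in the methods, infarct with border zone in the design text) and on the kit (mRNA in the labels, total RNA in the methods); which holds was not settled. The kit decides how RNAs without a poly(A) tail are sampled. Reads within a microRNA or snoRNA that overlaps its host may be counted for neither gene.

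Each table was fitted on its own in R 4.3.3 with edgeR 4.0.16: TMM, filterByExpr (minimum count 10, total 15), quasi-likelihood testing, with p-values adjusted by Benjamini-Hochberg across the whole table (threshold 0.05). SEs follow from the fold change and its F statistic, and 95% intervals from the t quantile. Depth was 20215781 to 36816818 counts per library. No 2 libraries agreed within sampling noise (chi-square per gene at least 7.42). Animals differ between libraries, and with 3 per group p-values rest on the spread between these hearts. Code was tested on simulated data. Of 38293 identifiers, 36345 have a symbol in GENCODE M21.

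The members and lists were chosen with earlier results of these data known. Named are all members, Zeb2, the genes of each list that passed (up to 6 per list and comparison by smallest p-value, beside Igf1r, Igf2r, Igfbp5, Igfals and 2 fibroblast markers, named after their values were seen), neighbours within 250000 bases that passed (up to 6), and the 3 genes most like each member in log2 CPM (prior count 2). Alternatives were other size factors, filters, DESeq2 1.42.0, limma-voom (limma 3.58.1), the replicate number as a block, a loess correction for GC content (span 0.5), all 12 libraries in 1 fit, and each library left out.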

Additional observations from a re-analysis of the deposited data

How the results depend on the processing

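Igf2 after IR had a negative log2 fold change under all 12 other settings and passed under 10 of them; it was -0.30 (adjusted p = 0.246) with scaling on cardiomyocyte markers and -0.58 (adjusted p = 0.0886) in the joint fit of 12 libraries. The number of members called after IR was 2 with cardiomyocyte marker size factors (Rian and Mirg), 2 with DESeq2, the GC correction, the replicate block, and the block with GC correction (Igf2 and Neat1), 5 without a filter on low counts (these 4 and Meg3) and 0 in the fit of 12 libraries. Leaving out 1 library gave 0 to 4 members and 421 to 4980 genes in all, and the fit of 12 libraries called 1424 genes against 2859. Apart from WT IR replicate 1 (4980), the omissions that moved the count of all genes by over 1.5 times were those of WT sham replicates 1 (1277), 2 (421) and 3 (1435) and WT IR replicates 2 (919) and 3 (1855).

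Between the Zeb2 groups, 1 member, Igf2, was called without a filter (adjusted p = 0.0322), with the replicate block (adjusted p = 0.0464) and in the joint fit of 12 libraries (adjusted p = 0.0371), and none with the block and GC correction (0.41, adjusted p = 0.197). The count of all genes, 474, became 724 with cardiomyocyte marker size factors, 1553 without a filter, 1096 with DESeq2, 836 with the GC correction, 1813 with the replicate block, 744 with both, and 1932 in the fit of 12 libraries; with 1 library left out there were 0 to 1 members and 98 to 2419 genes, with 245 and 98 on leaving out Zeb2 WT IR replicates 2 and 3 and 149, 2419 and 117 on leaving out Zeb2 cTg IR replicates 1, 2 and 3. Same-numbered libraries did not deviate together in every pair (correlations of 0.134, 0.260 and -0.042, and of -0.034, 0.012 and -0.015 in the WT table), and not every library correlated best with its own number, so the number is not taken to pair them. The Zeb2 libraries numbered 2 did correlate best with each other (0.260). Whether some of the same-numbered libraries share a batch was not tested.

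Values near 0 changed sign. Malat1 after IR was 0.05 with scaling on cardiomyocyte markers. Between the Zeb2 groups Malat1 was 0.15 with the GC correction, with or without the block, and ranged from -0.14 to 0.08 with 1 library left out (0.08 and 0.06 without Zeb2 WT IR replicate 2 and Zeb2 cTg IR replicate 1). Meg3 was -0.03 with cardiomyocyte scaling. Rian was 0.26 with the GC correction, with or without the block, 0.00 without a filter, 0.01 in the fit of 12 libraries and between -0.18 and 0.09 with 1 library left out (0.01, 0.02, 0.09 and 0.05 without Zeb2 WT IR replicates 1 and 2 and Zeb2 cTg IR replicates 1 and 3). The causes were not tested. Without WT IR replicate 2, Mirg did not pass the filter on low counts and has no value. Of the calls after IR, 42.7% were higher with the GC correction and 66.7% in the fit of 12 libraries, against 53.1%. Log2 fold changes followed GC content over all genes (Spearman's rho -0.292 after IR and 0.552 between the Zeb2 groups). Among the members tested, depth limits Mirg most, at 2 to 23 counts per library.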

Other observations

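Genes within 250000 bases of the members were counted by place. Around Malat1 and Neat1, 23 genes were tested after IR, of which 2 rose and 9 fell, beside 11.0% and 9.74% of all genes (median log2 fold change -0.22, against 0.006 over all genes). The 6 with the smallest p-values were Map3k11, a kinase of the JNK pathway (-0.77, adjusted p = 0.00366), Ltbp3, which binds latent TGF-beta (0.91, adjusted p = 0.00878), Ehbp1l1 (-0.43, adjusted p = 0.0148), Pcnx3 (-0.49, adjusted p = 0.0149), Sipa1 (-0.52, adjusted p = 0.0160) and Dpf2, a chromatin reader (-0.37, adjusted p = 0.0257). Between the Zeb2 groups 1 of 24 passed, Ehbp1l1, which was higher in the hearts labelled Zeb2 cTg IR (0.66, adjusted p = 0.0404), beside 3.64% of all genes. The median of the 24 was 0.46 in this comparison, above 0 where it was below 0 after IR. Around Miat the medians were -0.24 after IR and 0.45 between the Zeb2 groups. Over all genes, log2 fold changes followed GC content with the same signs (Spearman's rho -0.292 and 0.552). The values of the neighbours were not corrected for GC content, and its part in these medians was not tested.

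Around H19 and Igf2, 4 genes were tested. After IR, Lsp1, a leukocyte actin-binding protein, rose (0.65, adjusted p = 0.0112) and Prr33 fell (-0.95, adjusted p = 0.0139). Between the Zeb2 groups the lysosomal protease Ctsd was higher in the hearts labelled Zeb2 cTg IR (0.68, adjusted p = 0.0308) and Prr33 lower (-2.10, adjusted p = 0.0308). Around Miat, 2 of 5 fell after IR, Tpst2 (-0.59, adjusted p = 0.00796) and Cryba4 (-0.78, adjusted p = 0.0344), and none passed between the Zeb2 groups. Over all genes, 9.74% fell after IR and 3.64% passed between the Zeb2 groups. None of the 80 other genes of the tables near the Dlk1-Dio3 members passed the filter on low counts.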
